A study of Mus musculus with 36 samples.

Results

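Voltage-gated potassium channels of neurons were followed through 7 mouse genes, Kcna1, Kcna2, Kcnc1, Kcnc2, Kcnd2, Kcnd3 and Kcnq3, by taking every array probe set annotated to them. They had 23 of the 45101 probe sets on the array: 4 each for Kcna1, Kcna2, Kcnc1, Kcnd2 and Kcnd3, 2 for Kcnq3 and 1 for Kcnc2. Total RNA of the cerebellum and the forebrain was hybridised to 36 Affymetrix arrays, 3 in each of 12 groups. The groups were stg-/-, tg-/- and lh-/- mutant mice and the stg+/+, tg+/+ and lh+/+ mice of the same 3 lines, each in both tissues. As background, the symbols stg, tg and lh stand for stargazer, tottering and lethargic, recessive ataxic and epileptic mutants of the calcium channel or AMPA receptor auxiliary subunit gene Cacng2, the calcium channel pore gene Cacna1a and the calcium channel beta subunit gene Cacnb4. These are germline mutations, not limited to a cell type by a promoter or Cre, and strain, age and rearing are not given in the sources used here. Each array is described as 1 mouse. Nothing in the labels says whether the cerebellum and forebrain RNA came from the same mice, so p-values measure the spread between these samples.

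Voltage-gated potassium channels open when the membrane is depolarised and let potassium leave the cell, which ends the action potential and sets how soon the next can follow. Each channel is a ring of alpha subunits, and subunits of the same subfamily can mix. Kcna1 and Kcna2 encode low-threshold subunits that sit together along axons and in the basket cell terminals around Purkinje cells, and loss of Kcna1 causes episodic ataxia in people. Kcnc1 and Kcnc2 encode high-threshold, fast-closing subunits of fast-spiking neurons. Kcnd2 and Kcnd3 encode the pores of the A-type current in cell bodies and dendrites. Kcnq3 encodes a subunit of the channel that carries the muscarine-sensitive M current.

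The mutated genes were read first as a check of the labels. The Cacng2 probe set with the highest mean fell by 4.53 in stg cerebellum and by 3.61 in stg forebrain on the log2 scale (adjusted p = 5.92e-06 and 7.22e-10, limma). That of Cacnb4 fell by 1.08 in lh forebrain (adjusted p = 0.0285, limma) and stood at -0.61 in lh cerebellum without passing (adjusted p = 0.0814, limma). Cacna1a stood at 0.13 in tg cerebellum and 0.18 in tg forebrain (adjusted p = 0.998 and 0.967, limma), so the RNA level does not check the tg labels; as background, tottering is a missense mutation. The summed signal of 7 granule cell markers lay between 21510 and 29140 on cerebellum arrays, against 943.4 to 1877 on forebrain arrays, and that of 5 cortical and hippocampal markers between 232.3 and 351.6, against 3609 to 6203. Gh and Prl, hormone genes of the pituitary, stood high on 3 forebrain arrays, stg+/+ replicates 1 and 2 and lh+/+ replicate 3. The forebrain counts of called members, all 0, did not change when those arrays were left out. That check did not cover the forebrain counts at an unadjusted p.

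Of the 23 probe sets, 18 had a mean above the 40th percentile over all arrays and entered the comparison of tissues, 17 entered the cerebellum comparisons and 18 the forebrain comparisons. The 5 left out throughout were 1442413_at of Kcna1, 1457911_at of Kcna2, 1456965_at of Kcnc1, 1447764_at of Kcnd2 and 1426070_a_at of Kcnd3. Their signal never exceeded 42.44 on any array. The Kcnd2 probe set 1447764_at lay below 2.98, the constant added before taking log2, on 29 of the 36 arrays. The Kcnq3 probe set 1458421_at was left out in cerebellum. For each gene the lead probe set, the one with the highest mean over all arrays, is given first below. Levels of different probe sets cannot be set against each other, because each binds its target with its own strength.

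**Figure D1:**
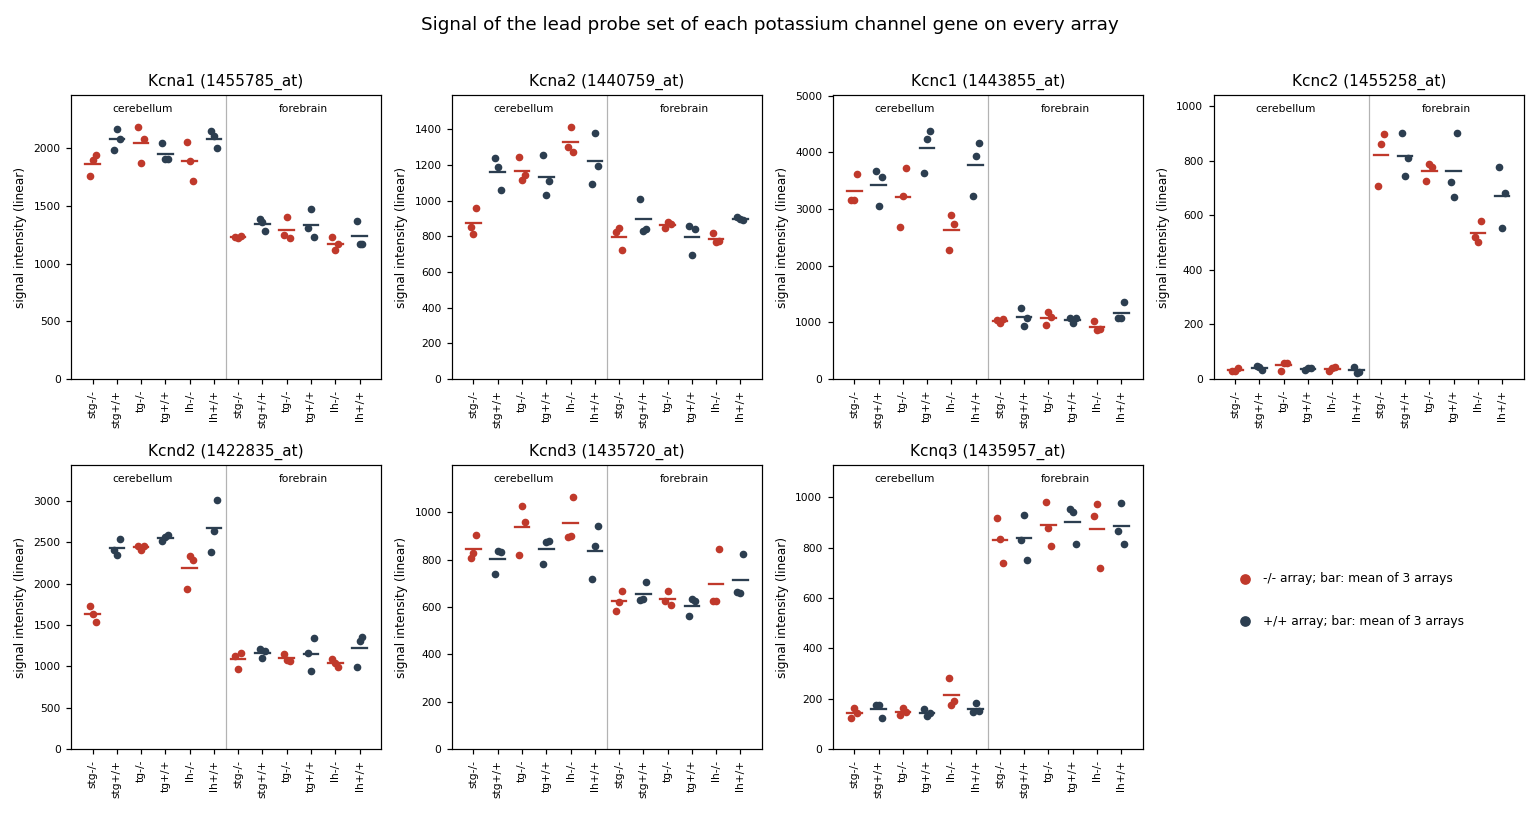
Linear signal intensity (vertical axis) of the lead probe set of each of the 7 genes on every array, by line and genotype (horizontal axis), with cerebellum left and forebrain right in each panel; red points are -/- arrays, dark points +/+ arrays and bars the means of 3 arrays. Kcnc2 and Kcnq3 are low in cerebellum and high in forebrain, Kcnc1 and Kcnd2 the reverse, and the Kcnd2 points of stg-/- cerebellum, 1540 to 1724, lie below all other cerebellum points.

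In +/+ mice the 7 genes divided by tissue. Signals of Kcna1, Kcna2, Kcnc1, Kcnd2 and Kcnd3 were higher in cerebellum than in forebrain, and those of Kcnc2 and Kcnq3 were lower. Of the 18 probe sets measured, 14 were higher and 3 lower in cerebellum at an adjusted p under 0.05 (limma, Benjamini-Hochberg), where 58.2% of all 27022 probe sets tested were called, 32.4% higher and 25.8% lower. One of the 3 lower, Kcnq3 1458421_at, passed the filter only through forebrain, where it is high, so its direction was set by the filter. Between the 9 cerebellum and the 9 forebrain arrays 12 member probe sets did not overlap, 9 higher and 3 lower, against 22% of all probe sets, 11.1% higher and 11% lower, and 1458421_at is among the 3. The median change of the members was 0.55 and that of all probe sets 0.06 on the log2 scale. A count of called members is read against that high background, so the sizes below carry more than the number of calls.

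The widest gap was that of Kcnc2, a fast-spiking subunit. Its probe set 1455258_at ran from 22.99 to 45.7 with a median of 38.78 on the +/+ cerebellum arrays, and from 554.6 to 902.5 with a median of 743.7 on the +/+ forebrain arrays. The 2 sets of arrays lay far apart. The mean was 36.7 ± 7.80 in cerebellum and 752 ± 112 in forebrain (SD, n = 9 each), which is 4.89% of the forebrain mean, and the change was -4.26 (SE 0.12, adjusted p = 1.04e-23, limma). Its sister Kcnc1 went the other way. The lead probe set 1443855_at ran from 3057 to 4377 with a median of 3669 in cerebellum, and from 941 to 1353 with a median of 1072 in forebrain, with no overlap. The mean in cerebellum was 3.42 times that in forebrain and the change was 1.77 (SE 0.07, adjusted p = 1.31e-19, limma). The other measured Kcnc1 probe sets were higher by 1.12 (1423559_at) and by 0.28 (1456944_at), so the size of the Kcnc1 difference depended on the probe set.

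Kcnd2, the A-type pore subunit, was higher in cerebellum with all 3 measured probe sets. The lead probe set 1422835_at ran from 2352 to 3017 with a median of 2537 in cerebellum, and from 948.4 to 1358 with a median of 1188 in forebrain. No cerebellum array came near the forebrain arrays. The means were 2555 ± 198 in cerebellum and 1178 ± 146 in forebrain (SD, n = 9 each), a ratio of 2.17, and the change was 1.12 (SE 0.06, adjusted p = 3.73e-16, limma). Changes of the other 2 were 1.45 (1422834_at) and 1.30 (1450773_at). Kcnd3, the other A-type pore, differed less. Its lead probe set 1435720_at ran from 716.6 to 941.7 in cerebellum and from 560.3 to 822.7 in forebrain, so the tissues overlapped, and its change was 0.33 (SE 0.07, adjusted p = 9.03e-05, limma). The Kcnd3 probe set 1447513_at was higher by 0.57, and 1442555_at, at 0.45, was the 1 member probe set that did not pass (adjusted p = 0.0761, limma).

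Kcnq3, of the M current, had 121.9 to 182 with a median of 151.6 on the +/+ cerebellum arrays, and 752.4 to 975 with a median of 867.1 on the +/+ forebrain arrays, with its lead probe set 1435957_at. The tissues did not overlap, the mean in forebrain was 5.68 times that in cerebellum, and the change was -2.49 (SE 0.09, adjusted p = 4.47e-21, limma). The other Kcnq3 probe set, 1458421_at, ran from 3.969 to 24.98 in cerebellum, where it did not pass the filter, and from 53.47 to 97.69 in forebrain. It is given as a description and adds no support. The low-threshold axonal subunits were moderately higher in cerebellum. Kcna1 changed by 0.64 with its lead probe set 1455785_at (1908 to 2172 in cerebellum, 1169 to 1476 in forebrain), and by 0.79 and 0.90 with the others, none overlapping between the tissues. Kcna2 changed by 0.44 with its lead probe set 1440759_at (1032 to 1379 in cerebellum, 692.9 to 1009 in forebrain), which did not overlap, and by 0.45 and 0.53 with the others, which did.

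**Figure D2:**
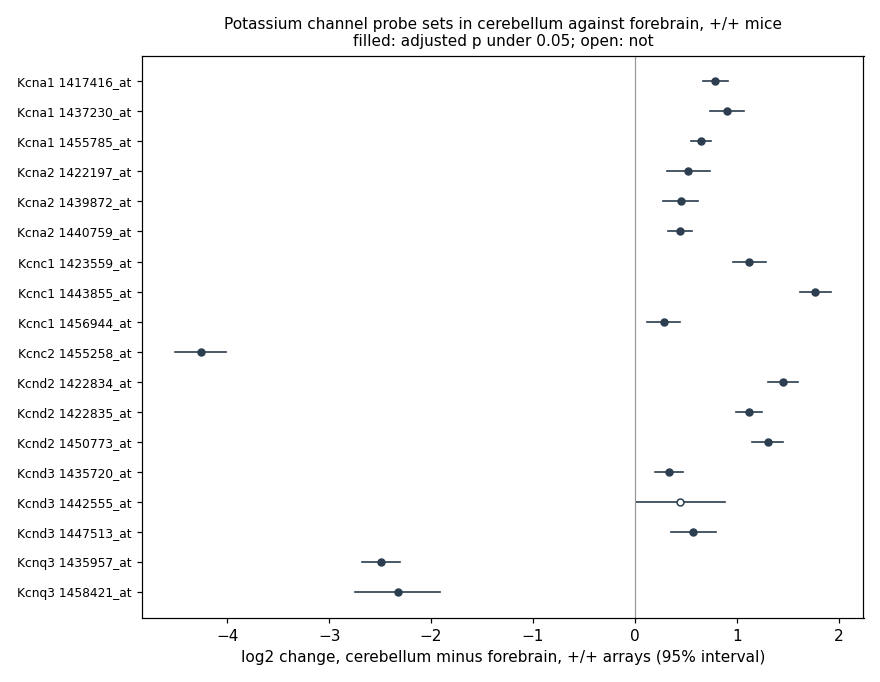
Log2 change, cerebellum minus forebrain in +/+ mice (horizontal axis), of the 18 measured probe sets, 1 per row, with 95% intervals from the limma fit; filled points passed an adjusted p of 0.05. Kcnc2 at -4.26 and Kcnq3 at -2.49 and -2.33 lie left of 0, and all probe sets of the other 5 genes lie right of it.

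The stretches around the start of Kcnd2 and Kcnc1, higher in cerebellum, and of Kcnc2, lower there, are shown because these genes differed most between the tissues in their own directions. Each covers 300 bases, 250 before and 50 after the annotated start, from RefSeq on build GRCm38.p6, plus strand, 5′ to 3′: Kcnd2 at chr6:21215096-21215395, Kcnc1 at chr7:46396218-46396517 and Kcnc2 at chr10:112269767-112270066, the first of its 4 annotated starts. Capitals mark matches, on either strand, to the letters TATAAA of the TATA box, the letters CCAAT of the box named after them, the letters GGGCGG of the GC box, the letters TGACG of the cAMP response element core and the letters CACGTG of an E-box. None of these letter strings contains another.
Kcnd2: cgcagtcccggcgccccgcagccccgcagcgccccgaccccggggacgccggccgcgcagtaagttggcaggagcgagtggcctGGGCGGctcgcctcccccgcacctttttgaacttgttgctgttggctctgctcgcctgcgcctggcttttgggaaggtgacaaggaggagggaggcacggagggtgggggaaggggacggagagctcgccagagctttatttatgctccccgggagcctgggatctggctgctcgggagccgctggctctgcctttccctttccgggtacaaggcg
Kcnc1: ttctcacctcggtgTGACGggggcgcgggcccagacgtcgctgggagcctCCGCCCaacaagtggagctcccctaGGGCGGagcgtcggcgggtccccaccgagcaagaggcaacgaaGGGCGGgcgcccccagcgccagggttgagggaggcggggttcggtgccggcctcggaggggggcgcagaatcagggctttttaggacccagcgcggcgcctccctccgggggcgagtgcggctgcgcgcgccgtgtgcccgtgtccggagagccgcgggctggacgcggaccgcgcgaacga
Kcnc2: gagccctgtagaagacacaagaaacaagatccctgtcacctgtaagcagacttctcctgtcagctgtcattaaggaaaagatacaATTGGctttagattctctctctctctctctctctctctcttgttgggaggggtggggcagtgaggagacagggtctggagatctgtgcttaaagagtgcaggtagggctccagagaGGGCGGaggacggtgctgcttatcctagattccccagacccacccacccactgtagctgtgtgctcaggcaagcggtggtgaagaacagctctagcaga
Among the 32851 promoters of that set 13.6% held the TATA box letters, 37.4% those of the CCAAT box, 35.7% those of the GC box, 20.8% those of the cAMP response element core and 7.15% those of the E-box. Kcnd2 held 1 GC box match, Kcnc1 held 3 and 1 match to the cAMP response element core, and this Kcnc2 stretch held 1 match each to the CCAAT box and the GC box. None held the TATA box or E-box letters in this window. Base composition separated them more than these motifs did: G and C made up 68.7% of the Kcnd2 stretch, 74.7% of that of Kcnc1 and 52.7% of that of Kcnc2, where the median over all promoters was 52.7%. There were 26 CpG pairs in the Kcnd2 stretch, 41 in that of Kcnc1 and 3 in that of Kcnc2, against a median of 7. Promoters of Kcna2 and Kcnd3, at 66.7% and 64% G and C with 31 and 25 CpG pairs, resembled those of Kcnd2 and Kcnc1 in this, and the 4 Kcnc2 starts had 52.7% to 58% with 3 to 6. These are descriptions of letters in a window, and no measurement here bears on whether they act. The set held promoters of 5 of the 7 genes. It had none for Kcna1 or for Kcnq3, the other gene lower in cerebellum, so Kcnc2 alone stands for that direction.

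In stg cerebellum Kcnd2 fell. Its lead probe set 1422835_at had 1724, 1627 and 1540 in stg-/- mice, against 2409, 2352 and 2537 in stg+/+ mice. Every mutant array lay below every +/+ array, and the gap between the groups was wider than either group's range. The means were 1630.5 ± 92.3 and 2433 ± 95.1 (SD, n = 3 each), so the mutant mean was 67.0% of the +/+ mean. The log2 change was -0.58 (SE 0.09, 95% interval -0.77 to -0.39, adjusted p = 0.00167, limma). This was the 1 member probe set called of 17, with 1.3% of all probe sets called in this comparison and 0.777% called lower. It stayed called under all 15 other ways of fitting, with adjusted p from 0.000171 to 0.0188 (limma).

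The other measured Kcnd2 probe sets also lay lower in stg-/- cerebellum without passing. The probe set 1422834_at had 516.2, 512.2 and 580.9 in stg-/- mice, against 699.1, 707.7 and 802.3 in stg+/+ mice (-0.45, adjusted p = 0.0948, limma). The probe set 1450773_at had 804.1, 587.4 and 892.5, against 1004, 1075 and 1247 (-0.56, adjusted p = 0.0905, limma). Neither overlapped between the groups. In this line the cerebellum arrays of the same replicate number deviated together, with correlations of 0.156, 0.188 and 0.380, and with the number as a replicate block both were called (adjusted p = 0.00909 and 0.00487, limma). Both were also called with sex, as read from sex-linked genes on the arrays, as a block (adjusted p = 0.0213 and 0.0108, limma).

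Markers of cell types moved with the stg genotype too. The summed signal of 7 measured granule cell markers was 21510 to 22590 in stg-/- cerebellum, against 24410 to 27320 in stg+/+ cerebellum, with no overlap. Of these markers 5 lay below 0 and 2 above, 1 (Gabra6) was called lower, and none was near the constant. The 7 Purkinje cell markers summed to 36030 to 41040 in stg-/- cerebellum, against 27710 to 35940, narrowly without overlap. All 7 were above 0 and none was called. The sums of 7 astrocyte markers were 13630 to 14550 against 13060 to 13420, without overlap, with 5 of 7 above 0 and 1 (Gfap) called higher. Those of 7 GABA neuron markers were 12330 to 12440 against 10540 to 12270, also without overlap, with 3 of the 5 measured above 0, none called and 1 near the constant in each group. The sums of 7 microglia markers, 994 to 1148 against 875.1 to 999.3, overlapped, with 6 of the 6 measured above 0 and none called. Those of 6 thalamus markers, 780.7 to 906.9 against 762.5 to 890.8, also overlapped, with 1 called higher and 1 lower. As background, granule cells are the main site of Kcnd2 in the cerebellum. The part of these cell types in the Kcnd2 result was not tested, and in such bulk RNA fewer granule cells and less RNA per cell cannot be told apart.

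Among the low-threshold subunits, the lead Kcna2 probe set 1440759_at had 849.8, 813 and 959.9 in stg-/- cerebellum, against 1240, 1187 and 1062 in stg+/+ cerebellum. The groups did not overlap, and the change of -0.41 narrowly missed (SE 0.10, adjusted p = 0.0549, limma). It was called with the replicate block, the filter at the 60th percentile and array weights (adjusted p = 0.0118, 0.0412 and 0.0143, limma), while the other Kcna2 probe sets stood at 0.07 and -0.17. The 3 measured Kcna1 probe sets were at -0.10, -0.30 and -0.15. Each had its 3 mutant arrays below its 3 +/+ arrays, and 1437230_at, at -0.30 (1164, 997.5 and 918.7, against 1262, 1305 and 1210), had an adjusted p of 0.115 without the replicate block and 0.0274 with it (limma), and was also called when stg-/- replicate 1 was left out.

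Kcnc1 gave unlike readings in stg cerebellum. Its lead probe set 1443855_at had 3154, 3157 and 3616 in stg-/- mice, against 3669, 3057 and 3564 in stg+/+ mice, groups that overlap (-0.05, 95% interval -0.32 to 0.22). The weaker probe set 1456944_at had 449.1, 392.6 and 559.1, against 313.5, 342.2 and 327.8, with the mutant arrays higher (0.49, SE 0.15, adjusted p = 0.151, limma; 0.0247 with the replicate block). Nothing here tells which transcripts these probe sets read. Over the 17 measured member probe sets 8 did not overlap between stg-/- and stg+/+ cerebellum, 1 higher and 7 lower, against 15.6% of all probe sets, 8.13% higher and 7.48% lower. The 7 lower are repeat readings of Kcnd2 and Kcna1 and 1 probe set of Kcna2, so they are not independent. The median change of the members was -0.14 and that of all probe sets 0.01. With the replicate block 6 members were called in place of 1, while the share of all probe sets called was 3.77% in place of 1.3%: the 3 of Kcnd2, 1 each of Kcna1 and Kcna2, all lower, and 1456944_at of Kcnc1, higher.

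**Figure D3:**
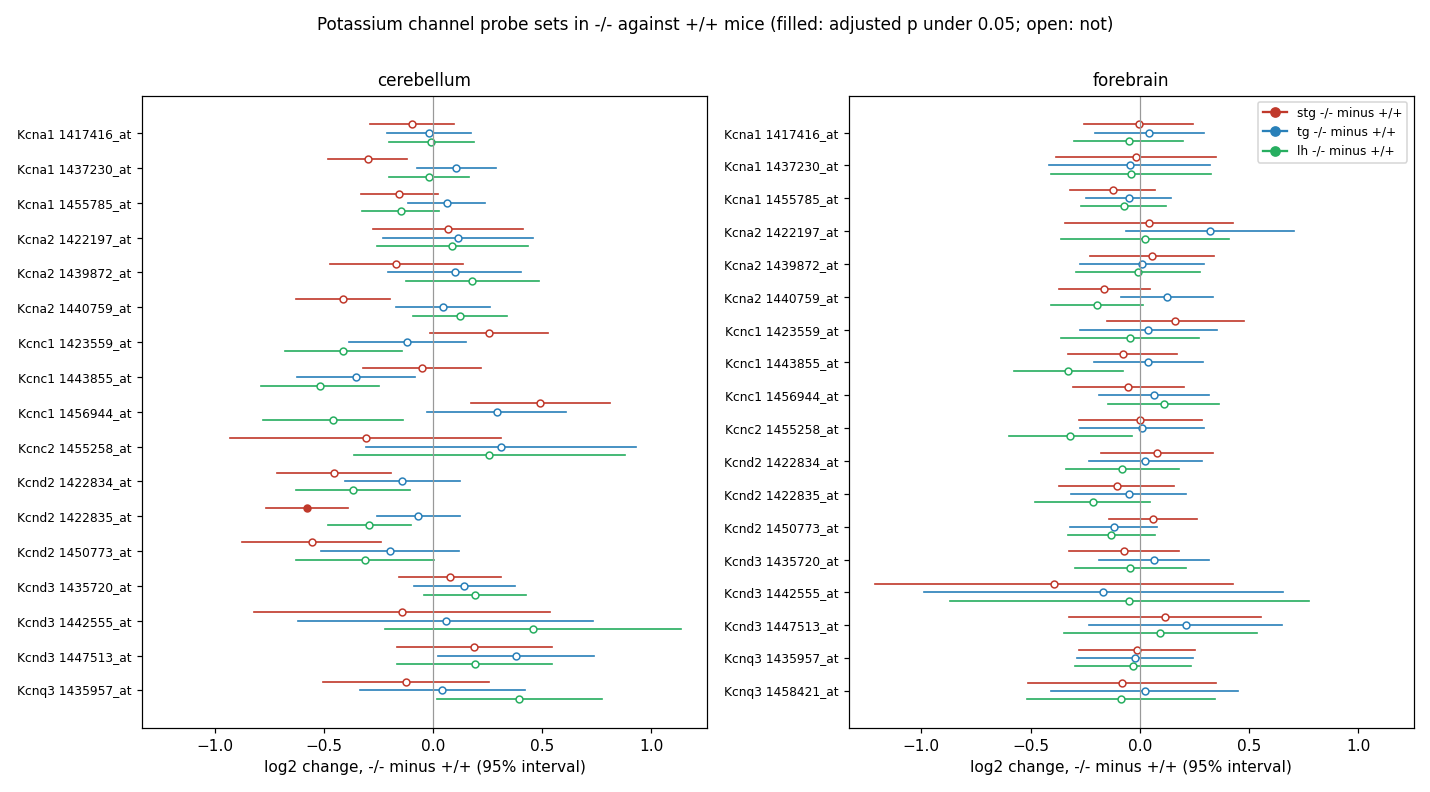
Log2 change, -/- minus +/+ (horizontal axis), of each measured probe set (rows) in the stg (red), tg (blue) and lh (green) lines with 95% intervals from limma, cerebellum left and forebrain right; filled points passed an adjusted p of 0.05. One point is filled, Kcnd2 1422835_at at -0.58 in stg cerebellum; the Kcnd2 points of the 3 lines all lie left of 0 in cerebellum.

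In lh cerebellum no member was called, where 0.155% of all probe sets were, and Kcnc1 and Kcnd2 stood lowest. The lead Kcnc1 probe set 1443855_at had 2270, 2891 and 2742 in lh-/- mice, against 3234, 3933 and 4163 in lh+/+ mice. The groups did not overlap, and the mutant mean was 69.8% of the +/+ mean (-0.52, SE 0.13, adjusted p = 0.151, limma). The other Kcnc1 probe sets were at -0.41 (1423559_at) and -0.46 (1456944_at), so here the 3 pointed one way. Kcnd2 was at -0.29 with its lead probe set (1934, 2339 and 2285 in lh-/- mice, against 2385, 2634 and 3017 in lh+/+ mice), and at -0.37 and -0.31 with the others. Kcnq3 was at 0.40, with 283.8, 174.6 and 190.1 against 148.2, 182 and 151.6, where the first mutant array lay apart from the other two. At an unadjusted p under 0.05 there were 6 members, against 7.62% of all probe sets, and 4 did not overlap, all lower, against 12.7% of all probe sets, 5.47% lower. Granule cell markers summed to 22120 to 23080 in lh-/- cerebellum, against 26900 to 28860 in lh+/+ cerebellum, with 6 of 7 below 0 and none called. Microglia markers summed to 1137 to 1179 in lh-/- cerebellum, against 880.3 to 922.5 in lh+/+ cerebellum, with all 6 measured above 0 and none called. Astrocyte markers summed to 13560 to 14060 in lh-/- cerebellum, against 10790 to 12450 in lh+/+ cerebellum, with 5 of 7 above 0 and none called. The part of these cells in the Kcnc1 and Kcnd2 values was not tested.

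In tg cerebellum no member was called either, where 0.574% of all probe sets were. The lead Kcnc1 probe set 1443855_at had 2679, 3235 and 3727 in tg-/- mice, against 3626, 4240 and 4377 in tg+/+ mice, which overlap (-0.35, SE 0.13, adjusted p = 0.413, limma). Kcnd2 1422835_at had 2453, 2412 and 2450, against 2515, 2560 and 2588. These do not overlap, yet the change was -0.07 with a 95% interval of -0.26 to 0.12. That interval leaves out the -0.58 found in stg, but the stg value has an error of its own. The direct test of a difference among the lines did not pass for this probe set (adjusted p = 0.226, limma's moderated F test). The Kcnd3 probe set 1447513_at stood at 0.38 (155.2, 147.6 and 156.9, against 101.8, 117.6 and 133.9, adjusted p = 0.625, limma). At an unadjusted p under 0.05 there were 2 members, against 7.28% of all probe sets, and 4 did not overlap, 2 higher and 2 lower, against 14% of all probe sets, 7.23% higher and 6.81% lower. Granule cell marker sums overlapped in this line, at 25650 to 27210 in tg-/- cerebellum and 26350 to 29140 in tg+/+ cerebellum. Microglia marker sums did not, at 1190 to 1459 in tg-/- cerebellum, against 913.3 to 1130 in tg+/+ cerebellum, with all 6 measured above 0 and none called. The part of these cells in the tg values was not tested.

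**Figure D4:**
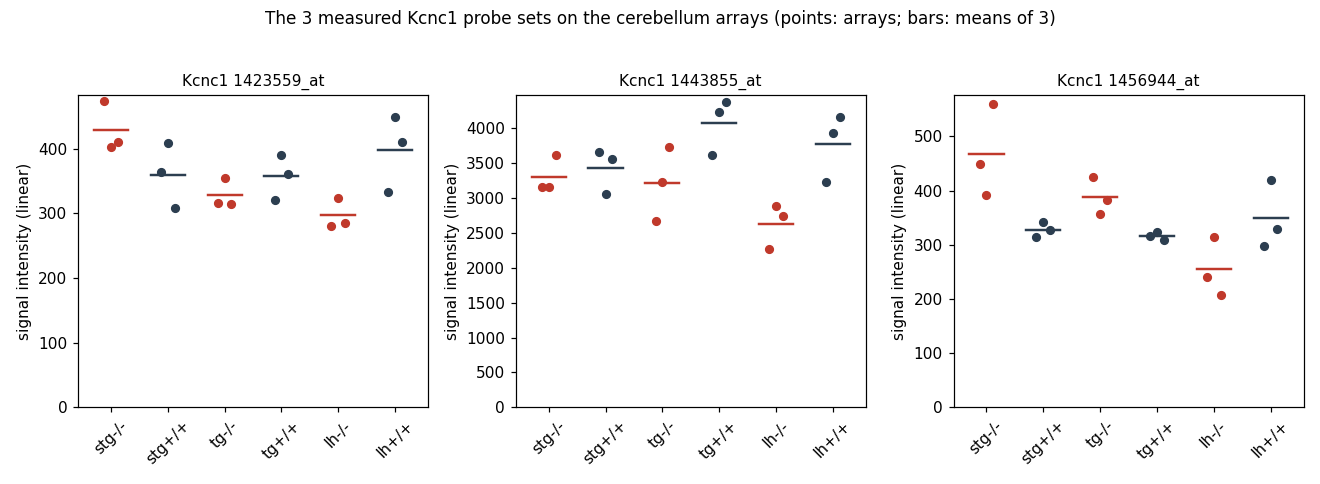
Linear signal intensity (vertical axis) of the 3 measured Kcnc1 probe sets on the 18 cerebellum arrays by line and genotype; red points are -/- arrays, dark points +/+ arrays and bars means of 3. In the lh line the -/- mean is below the +/+ mean in every panel, while in the stg line 1456944_at is higher on all 3 -/- arrays (392.6 to 559.1) than on the +/+ arrays (313.5 to 342.2).

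Averaged over the 3 lines, all 3 measured probe sets of Kcnd2 and 1 of the 3 of Kcnc1 were lower in mutant cerebellum. The mean effect was called for 4 of the 17 member probe sets, of 2 genes and all lower, where 1.97% of all probe sets were called and 0.933% called lower. They were Kcnd2 1422835_at (-0.31, SE 0.05, adjusted p = 0.00252), 1422834_at (-0.32, adjusted p = 0.0252) and 1450773_at (-0.35, adjusted p = 0.0410), and Kcnc1 1443855_at (-0.31, SE 0.07, adjusted p = 0.0372), all by limma. Kcnd2 1422835_at was called in all 26 other fits. The other measured Kcnc1 probe sets stood at -0.09 (1423559_at) and 0.11 (1456944_at) without passing. The other calls were weakly held: 1422834_at was lost in 7 of the 26, Kcnc1 1443855_at in 15 and 1450773_at in 16. The count of 4 fell to 2 without lh-/- replicate 1, lh+/+ replicate 2, stg-/- replicate 2 or tg-/- replicate 1, and to 1 without lh+/+ replicate 3, stg-/- replicate 1, stg+/+ replicate 3, tg-/- replicate 2, or tg+/+ replicate 2 or 3. The mean includes the stg and lh lines, where granule cell and astrocyte marker sums did not overlap, and the tg and lh lines, where microglia marker sums did not. Purkinje cell and GABA neuron marker sums did not overlap in stg. Both Kcnd3 probe sets of higher signal lay above 0 without passing (0.14 and 0.25).

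Whether the effect differed among the lines was tested directly, and no member passed (limma's moderated F test, lowest adjusted p = 0.120, for Kcnc1 1456944_at), where 0.315% of all probe sets did. At an unadjusted p under 0.05 there were 5 members, against 7.72% of all probe sets. For Kcnd2 1422835_at, with changes of -0.58 in stg, -0.07 in tg and -0.29 in lh, the adjusted p was 0.226 (0.0261 with the replicate block). So these data call the fall in stg without showing that it differs from the change in the other lines. The +/+ groups of the 3 lines did not differ for any member in cerebellum (lowest adjusted p = 0.670) or forebrain (lowest adjusted p = 0.678), where 0.881% and 0.414% of all probe sets were called by limma's F test.

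In cerebellum the order of the Kcnd2 group means, low to high, was stg-/- (1630.5), lh-/- (2186), stg+/+ (2433), tg-/- (2438), tg+/+ (2554) and lh+/+ (2679). The array ranges of each of these groups and the next overlapped or met, apart from the step between stg-/- and lh-/- (1540 to 1724 and 1934 to 2339), that between lh-/- and stg+/+ (highest 2339, lowest 2352) and that between tg-/- and tg+/+ (highest 2453, lowest 2515). For Kcnc1 1443855_at the order was lh-/- (2634), tg-/- (3214), stg-/- (3309), stg+/+ (3430), lh+/+ (3777) and tg+/+ (4081), and each group overlapped the next. In forebrain each group overlapped the next in such an order for both genes, with Kcnd2 means of 1041 to 1220 and Kcnc1 means of 925 to 1165.

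In forebrain no member was called in any line, in the mean effect or in the test among lines. The shares of all probe sets called were 0.0111% in stg, 0.189% in tg, 0.0148% in lh, 0.0148% in the mean effect and 0.0259% among lines, so few genes of any kind were. At an unadjusted p under 0.05 there were 0, 0 and 2 members in stg, tg and lh, against 2.55%, 5.68% and 3.87% of all probe sets. The 2 were in lh. Kcnc1 1443855_at had 1022, 868.4 and 884.2 in lh-/- mice, against 1075, 1069 and 1353 in lh+/+ mice, without overlap (-0.33, SE 0.12). Kcnc2, with 521, 501.8 and 580 in lh-/- mice, against 778.2, 554.6 and 681.9 in lh+/+ mice, overlapped (-0.32, SE 0.13). The adjusted p was 0.9997 for both in limma. The lh+/+ forebrain arrays include replicate 3, where Gh was 3526 and Prl 6052. The part of that array in these values was not tested.

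The stg effect on Kcnd2 stood at -0.11 (1422835_at), 0.08 (1422834_at) and 0.06 (1450773_at) in forebrain. The difference of the effect, cerebellum minus forebrain, was -0.47, -0.53 and -0.62 for these probe sets, and none passed (adjusted p = 0.374, 0.359 and 0.233, limma), where 0.248% of all probe sets did. For lead Kcna1, Kcna2 and Kcnd3 probe sets the 95% intervals of the stg forebrain change ran from -0.32 to 0.07, from -0.37 to 0.05 and from -0.33 to 0.18. Changes of the size of Kcnd2 in cerebellum lie outside these intervals, which cover those probe sets only. The Kcnd3 probe set 1442555_at stood at -0.39 in stg forebrain. Its signals ran from 12.15 to 43.56 in stg-/- mice and from 17.68 to 61.44 in stg+/+ mice. No member passed for the tg or lh effect between tissues, where 0.0259% and 0.0111% of all probe sets did.

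The wider channel family was read from a list of 33 further pore-forming or silent subunit genes, 24 of them on the array. In +/+ mice 15 were measured, of which 1 was higher and 12 lower in cerebellum, against 32.4% and 25.8% of all probe sets. The direction of 6 of the 12 was set by the filter, since they passed it only through forebrain, where they are high. Of the 9 genes that passed in both tissues 1 was higher, 6 were lower and 2 were not called. The 4 called genes with the largest fitted changes are all among those 6, and their cerebellum signals lay below the filter, so only signals are given. Kcnf1 and Kcnv1, silent subunits that join Kcnb channels, had 0.7589 to 14.7 and 1.454 to 29.37 in cerebellum, and 249 to 301.1 and 148.3 to 293.1 in forebrain. Kcnq5, of the M current, had 3.237 to 24.19 in cerebellum and 292.9 to 451.5 in forebrain, and Kcna5 had 1.487 to 17.6 and 60.16 to 108.1. The 1 higher gene, Kcng4 (2.76), is named, after its value was seen, because it was alone in its direction. None of the 9 measured in cerebellum was called in stg, tg or lh mice or in their mean, with changes in stg between -0.40 and 0.66, and none of the 19 measured in forebrain was called.

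Auxiliary subunits and partners made a second list of 21 genes. In +/+ mice 18 were measured, 6 higher and 7 lower in cerebellum, against 32.4% and 25.8% of all probe sets. Kcnip2, a calcium-binding partner of Kcnd channels, passed the filter only through forebrain, with 5.476 to 36.55 in cerebellum and 467.3 to 713.8 in forebrain. Among the 6 others lower were Kcnab2 (-1.58) and Kcnab3 (-0.93), cytoplasmic beta subunits of Kcna channels, and Cntnap2 (-0.98), which clusters Kcna channels on axons. The 6 higher were Kcnip4 (0.87), Dpp6 (0.63), Kcnip1 (0.40), Adam23 (0.38), Kcnab1 (0.36) and Adam22 (0.28), so partners lay in both directions. In mutant cerebellum 17 were measured. Kcnab1, another beta subunit, was lower in lh-/- mice (-0.50, SE 0.09, adjusted p = 0.0355, limma), where 0.155% of all probe sets were called, and none was called in stg or tg mice. The mean effect of the 3 lines was called for 2, where 1.97% of all probe sets were: Lgi1 (-0.32, adjusted p = 0.00875, limma), a secreted protein linked to Kcna channels and to epilepsy, and Adam23 (-0.31, adjusted p = 0.0205, limma), its receptor. None was called in forebrain.

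Genes most like each member were found by Pearson correlation over the 18 cerebellum arrays after subtracting each group's mean, which leaves the variation between mice of 1 group. Nearest to Kcnd2 were 4632404H12Rik (0.922), Tmem30a (0.887) and Septin6 (0.887), and nearest to Kcnc1 were Vldlr (0.942), Myt1l (0.923) and Rbm39 (0.923). Nearest to Kcna1 were Acot13 (0.911), Cops4 (0.892) and Pomp (0.889), and to Kcna2 Srgap2 (0.898), Lpp (0.883) and Wdr6 (0.875). For Kcnc2 they were Slc2a1 (0.925), Per2 (0.862) and Rasip1 (0.851), for Kcnd3 Ubn1 (0.932), Svil (0.927) and Zfc3h1 (0.914), and for Kcnq3 St6galnac5 (0.902), Ubash3b (0.899) and Ttc7 (0.898). These arrays share scaling and RNA quality, and the best of very many correlations over 18 points is high whatever the genes are. Among the members themselves, in the same measure, Kcnc1 ran with Kcnd3 (0.623) and with Kcnd2 (0.538), and Kcnd2 ran against Kcnq3 (-0.584) and Kcna1 (-0.572).

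Over the 12 group means the nearest genes mirrored the tissue difference, since 6 means were of each tissue. They were Lin7a (0.992) for Kcna1, Plcxd3 (0.975) for Kcna2, Phc2 (0.997) for Kcnc1, Gabarapl1 (0.997) for Kcnc2, Syf2 (0.992) for Kcnd2, Inhbb (0.973) for Kcnd3 and Lmo3 (0.998) for Kcnq3.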

How the data were processed

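Each array's deposited table gives 1 linear intensity for each probe set. The software and steps that turned scans into these values are not given in the sources used here. On every array the 2% trimmed mean was 150, so the deposited intensities share a common scaling. Gene names came from the platform annotation, and only probe sets with 1 symbol were named. Signals were taken as log2 of the intensity plus 2.98, the 10th percentile of all values, which understates changes of low probe sets. Array medians spanned 0.326, so no quantile normalization was applied. A probe set entered a fit where its mean over that fit's arrays exceeded the 40th percentile, which kept 27022 each time.

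Group means were fitted in R 4.3.3 by limma 3.58.1, whose two-sided moderated tests let the variance follow intensity. P-values were adjusted by Benjamini-Hochberg over all probe sets kept and called at 0.05. The fits of each tissue used 18 arrays, and those between tissues all 36. For arrays, their number per group limits the precision. The scripts were tested on simulated data. Of simulated log2 changes of 0.5, 20.4% were recovered in the stg cerebellum comparison and 25% in that of stg forebrain. Of changes of 1, 60.8% and 66.7% were. A member that was not called is thus not shown to be unchanged.

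Same-numbered -/- and +/+ arrays of the cerebellum titles were checked for pairing by the correlation of their deviations from group means. All 3 pairs exceeded 0.1 in stg (0.156 to 0.380), while 1 pair did not in tg (0.0404) and in lh (0.0948). Named outside the members are at most the 4 called genes of each list with the largest change, and the 3 genes most like each member. Kcng4, the 6 partner genes higher in cerebellum, the mutated genes, Gh, Prl and called cell type markers are named beside this rule. Of these, Kcng4, the 6 partner genes, Gh and Prl were named after their values were seen. The members and lists were chosen with earlier results of these data known. Alternatives were the constant, the filter, the trend, quantile normalization, array weights, sex or replicate number as a block, the 6 arrays alone and each array left out. Leaving out the 3 forebrain arrays with high pituitary genes was chosen after seeing the data. Sex was read from the signals of sex-linked genes, not from the labels. By this reading each stg group held 2 females and 1 male, and each lh group 1 female and 2 males. Each tg group held 0 females and 3 males, so the lines also differ in sex.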

Additional observations from a re-analysis of the deposited data

How the results depend on the processing

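All 17 calls between the tissues in +/+ mice kept their direction and stayed past the threshold in every alternative fit they entered. So did the Kcnd2 call in stg cerebellum, and no called value changed sign. Of the 17, Kcnq3 1458421_at did not enter the fit with the filter at the 60th percentile. Its direction was set by the filter, so its call adds no support. The counts of called members moved more elsewhere. In stg cerebellum the count of 1 became 2 with the filter at the 60th percentile, 2 with array weights, 3 with sex as a block and 6 with the replicate block, and lay between 1 and 2 with single arrays left out, the 2 being without stg-/- replicate 1. In tg and in lh cerebellum the replicate block gave 1 call each in place of 0, Kcnc1 1443855_at (adjusted p = 0.0139 and 0.00254, limma), where 1.59% and 0.781% of all probe sets were called. In each of these lines 1 pair of numbers fell below the limit of 0.1 (0.0404 in tg, 0.0948 in lh). The other pairs stood at 0.292 and 0.244 in tg and at 0.225 and 0.333 in lh. Both pairs below the limit were of replicate 2. The -/- array of that number correlated with +/+ arrays of other numbers at 0.159 at most in tg. In lh the highest such value was -0.00802. Whether the numbers pair samples there is not settled. For the test of whether effects differ among lines the block gave 4 calls in place of 0, against 1.78% of all probe sets, and leaving out single arrays 0 to 1, the 1 being without lh-/- replicate 2. The mean effect in cerebellum, 4 calls, gave 2 without the filter, 1 without the intensity trend and 1 to 4 with single arrays left out. Causes of these moves were not tested. Between the tissues, single arrays left out gave 17 to 18. No forebrain line count moved. No paired analysis was possible in forebrain because its titles carry no shared numbers. With 3 arrays a group, an exact permutation test of a single value could not go below 0.1.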
